A study of Mus musculus with 6 samples.

Results

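The genes described here are 10 components of the G1 phase control of the cell cycle: the CDK inhibitor genes Cdkn1a, Cdkn1b, Cdkn1c, Cdkn2a, Cdkn2b and Cdkn2c, the D cyclin genes Ccnd2 and Ccnd3, and the kinase genes Cdk4 and Cdk6. They were taken by gene symbol from a table of 19505 genes, with the brightest probe set per symbol, and each of the 10 had 1 probe set. Expression had been measured on 6 Affymetrix arrays of mouse fibrosarcoma cells (label FS2, strain C57BL/6) in culture, a tumor of fibroblast-like cells in which Rras2, a RAS-related GTPase gene, carries the Q72L substitution. All 6 samples share this tumor background. The 3 control samples (replicates 1 to 3) carried the empty lentiviral vector pLKO, and the 3 knockdown samples, shRras2 (replicates 4 to 6), carried an shRNA against Rras2, labelled sh#89. The labels name only 1 cell line and 1 shRNA, and they do not say whether replicates were grown as separate cultures.

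Cells pass from G1 into S phase when D cyclins activate CDK4 and CDK6 and cyclin E activates CDK2, and these kinases phosphorylate the RB proteins, which releases the E2F factors that switch on DNA replication genes. The INK4 proteins (Cdkn2a to Cdkn2d) bind CDK4 and CDK6 and keep D cyclins away, while the CIP/KIP proteins (Cdkn1a to Cdkn1c, known as p21, p27 and p57) bind cyclin-CDK complexes and chiefly block CDK2. RAS signalling is a classical input to both sides of this balance in fibroblasts, through D cyclin synthesis, through loss of p27 and through the induction of p21 and the INK4A product p16.

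None of the 10 genes passed the threshold when shRras2 was compared with pLKO (limma, Benjamini-Hochberg adjusted p under 0.05 over all 19505 genes), against a background of 5.21% of all genes past it, and 3 of the 10 had an unadjusted p under 0.05, against 19.1% of all genes. The groups did not overlap for 5 of the 10, against 25.5% of all genes. Cdk6 was nearest to the threshold, at 79.9% of the control signal (95% interval 70.4 to 90.7%), and Ccnd3 and Cdkn1b followed in the other direction, at 118% (103 to 134%) and 117% (102 to 133%). The number of called genes among the 10 stayed at 0 with a second quantile normalization and with cyclic loess. There 5.22% and 5.08% of all genes passed. Other probe set rules also gave 0, but they leave the differences of the 10 unchanged because each had 1 probe set. A minimum fold of 1.2 is a stricter test, so its 0 was fixed in advance (0.933% of all genes passed). Under other variance, filter and scaling settings the number of called genes among the 10 was between 1 and 3. It was 3 with a trend and robust variance model (Cdk6, Ccnd3 and Cdkn1a), where 9.78% of all genes passed. It was 2 when dim genes, as defined by the negative-control probe sets, were left out (Cdk6 and Ccnd3 of 7), where 19.8% of the 8131 genes tested passed. It was 1, Cdk6, with array weights and with each array centred on its median, where 6.35% and 5.50% of all genes passed. In the 6 fits that left out 1 array each it was 0, where 2.01 to 5.82% of all genes passed.

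Rras2 itself lay at 10.67, 10.75 and 10.82 in the controls and at 9.09, 9.69 and 9.21 on knockdown replicates 4, 5 and 6, on the log2 signal scale. All knockdown arrays were below all controls, and replicate 5 kept the most Rras2 signal (log2 difference -1.41 ± 0.14 SE, limma adjusted p = 0.00163). The array level is read against 5222 negative-control probe sets, whose 95th percentile was 7.92. Pearson correlations across genes were 0.9941 to 0.9966 within groups and 0.9884 to 0.9931 between them. Of 13 measured fibroblast markers 8 had a mean above the negative-control percentile. Past the threshold 5 were higher and 0 lower, against 5.21% of all genes past it. The 5 were Postn (by 2.02), Dcn (0.76), Col3a1 (0.69), Col5a1 (0.47) and Pdgfrb (0.37) on the log2 scale. Both group means of Dcn (6.61 and 7.37) were below that percentile. The summed signal of the 13 was 14.96 to 15.01 in the controls and 15.14 to 15.20 in the knockdown. When single arrays were left out Postn passed in 6 of 6 fits and the other 4 in 1 or 2. Of the epithelial, leukocyte and endothelial markers 0 of 8, 0 of 7 and 0 of 6 had a mean above that percentile, and none passed the threshold. Of 21 skeletal muscle markers 13 were higher and 0 lower past the threshold, the largest being Myl1 (3.86), Myh3 (3.61), Mylpf (3.09), Mymk (3.00), Myh8 (2.99) and Acta1 (2.78), and their summed signal, on the log2 scale, was 11.28 to 11.44 in the controls and 12.79 to 13.54 in the knockdown. In the controls and knockdown together 6 of those 21 had a mean above the negative-control percentile, and 9 had both group means below it. The part of these fibroblast and muscle transcripts in the results below was not tested, and in bulk RNA fewer cells of a type and less RNA per cell cannot be told apart.

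**Figure D1:**
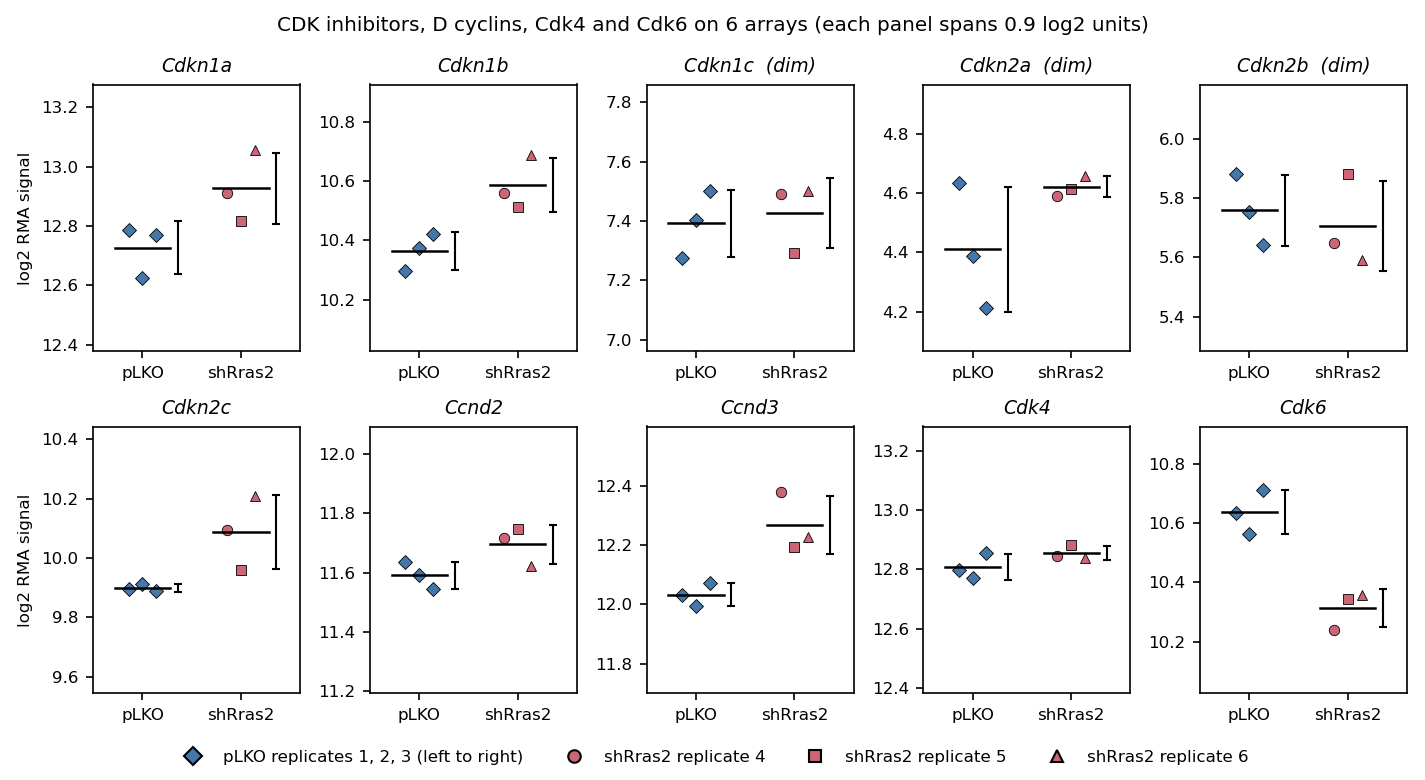
Log2 RMA signal of each of the 10 genes on the 3 pLKO arrays (blue diamonds) and the 3 shRras2 arrays (red), with the group mean (line) and SD (bar, n = 3); the y axes differ in position but cover the same span, and "dim" marks a mean below the negative-control percentile of 7.92. The red points of Cdk6 lie below all blue points, those of Cdkn1a, Cdkn1b, Cdkn2c and Ccnd3 above them, and the other 5 genes overlap.

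The kinases stood apart from each other. Cdk6, one of the 2 kinases driven by D cyclins, lay at 10.64, 10.56 and 10.71 in the controls and at 10.24, 10.34 and 10.36 on knockdown replicates 4, 5 and 6. Every knockdown array was below every control, and the gap between the groups was wider than the spread in either. The log2 difference was -0.32 ± 0.08 (SE; 95% interval -0.51 to -0.14, limma adjusted p = 0.0562, exact permutation p = 0.1, the smallest that 3 arrays against 3 allow). By unadjusted p it held rank 1093 of the 19505 genes, with 1017 genes past the threshold. Across the fits without 1 array its difference stayed between -0.36 and -0.29 with limma adjusted p-values of 0.0788 to 0.177.

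Cdk4, the sister kinase, lay at 12.80, 12.77 and 12.86 in the controls and at 12.84, 12.88 and 12.84 in the knockdown. The groups overlapped, and the difference was 0.05 ± 0.07 with a 95% interval of -0.12 to 0.21 (limma adjusted p = 0.794). Set against Cdk4 on the same array, Cdk6 moved by -0.43, -0.37 and -0.31 on knockdown replicates 4, 5 and 6 relative to the control mean, where the controls ranged from -0.04 to 0.03. This pair was chosen after the values were seen, so the unequal change is given as a description without a test.

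The RefSeq promoter windows of both kinases are shown because the kinases, which share their D cyclin partners, differed in this comparison. Each run is the 250 bases before the annotated start in GRCm38.p6, read 5′ to 3′ on the strand of the gene. Capitals mark the E-box CACGTG, the core site of MYC and related bHLH factors, and the GC box GGGCGG of SP1-type factors on either strand (CCGCCC when it lies on the other strand). The Cdk4 window is chr10:127063285-127063534 on the plus strand and the Cdk6 window is chr5:3343643-3343892 on the plus strand.
Cdk4: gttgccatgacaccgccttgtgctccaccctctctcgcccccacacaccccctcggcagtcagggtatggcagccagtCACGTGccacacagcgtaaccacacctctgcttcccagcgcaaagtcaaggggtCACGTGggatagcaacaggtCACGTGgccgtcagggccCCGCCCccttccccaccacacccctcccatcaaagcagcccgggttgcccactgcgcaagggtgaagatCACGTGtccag
Cdk6: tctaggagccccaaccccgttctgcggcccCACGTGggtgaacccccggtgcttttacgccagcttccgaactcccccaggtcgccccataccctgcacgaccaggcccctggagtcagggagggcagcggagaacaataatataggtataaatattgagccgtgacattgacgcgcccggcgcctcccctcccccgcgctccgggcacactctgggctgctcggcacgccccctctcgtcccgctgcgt
The Cdk4 window held 4 E-boxes and 1 GC box, and the Cdk6 window 1 E-box and 0 GC boxes. Of 32851 such windows listed by RefSeq 6.02% held the E-box and 32.7% the GC box. The E-boxes of Cdk4 began 172, 118, 98 and 11 bases before the start, and that of Cdk6 220 bases before it. Myc, a transcription factor of the growth response that is outside the naming rule, differed by -0.34 ± 0.12 and did not pass (limma adjusted p = 0.161). A match of letters is a description and does not show that a factor binds there. No relation between these windows, Myc and the levels of the kinases was tested.

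The measured D cyclins, Ccnd2 and Ccnd3, differed little and in the same direction. Ccnd1, the other D cyclin gene, had no value among the genes tested. Ccnd3 lay at 12.03, 12.00 and 12.07 in the controls and at 12.38, 12.19 and 12.23 in the knockdown. The groups did not overlap, replicate 4 was the highest, and the difference was 0.23 ± 0.08 (95% interval 0.05 to 0.42, limma adjusted p = 0.158). Its probe set is annotated to 3 RefSeq transcripts, which the value does not separate. Ccnd2 lay at 11.64, 11.59 and 11.54 in the controls and at 11.72, 11.75 and 11.62 in the knockdown. Knockdown replicate 6 fell within the control range, and the difference was 0.10 ± 0.08 (95% interval -0.07 to 0.28, limma adjusted p = 0.527). Relative to Ccnd2 on the same array, Ccnd3 stood 0.22, 0.01 and 0.17 above the control mean on replicates 4, 5 and 6, which overlapped the control range of -0.05 to 0.09.

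Of the CIP/KIP inhibitors, p27 and p21 had the higher knockdown values. Cdkn1b, which encodes p27, lay at 10.29, 10.38 and 10.42 in the controls and at 10.56, 10.51 and 10.69 on knockdown replicates 4, 5 and 6. All knockdown arrays were above all controls, by a difference of 0.22 ± 0.08 (95% interval 0.03 to 0.41, limma adjusted p = 0.182). Cdkn1a, which encodes p21, the inhibitor induced by p53, lay at 12.79, 12.62 and 12.77 in the controls and at 12.91, 12.82 and 13.05 in the knockdown. The groups did not overlap, but replicate 5 was only just above the highest control, and the difference was 0.20 ± 0.09 (95% interval -0.01 to 0.41, limma adjusted p = 0.28). Cdkn1c, which encodes p57, lay between 7.28 and 7.50 in the controls and between 7.29 and 7.50 in the knockdown. Both of its group means were below the negative-control percentile of 7.92, the groups overlapped almost fully, and the sign of its difference of 0.03 ± 0.10 turned under other settings, to -0.01 with each array centred on its median to -0.02 without control replicate 1 and to -0.00 without knockdown replicate 6.

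The INK4 genes divided by level. Cdkn2c, which encodes p18, lay at 9.89, 9.91 and 9.89 in the controls and at 10.09, 9.96 and 10.21 on knockdown replicates 4, 5 and 6. The controls differed by hundredths of a log2 unit (SD 0.01), the knockdown arrays spread more widely (SD 0.12), and the groups did not overlap. The difference was 0.19 ± 0.09 (95% interval -0.01 to 0.38, limma adjusted p = 0.276).

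Cdkn2a, the tumor suppressor gene whose locus yields both the INK4 protein p16 and, in another reading frame, the p53 activator ARF, lay at 4.63, 4.39 and 4.21 in the controls and at 4.59, 4.61 and 4.66 in the knockdown. These values lie inside the range of the negative controls, about 35% of which had a lower mean, so the difference of 0.21 ± 0.11 (limma adjusted p = 0.346) concerns a signal that could not be told from background. The difference was 0.32 without control replicate 1 and 0.11 without control replicate 3. Its probe set is annotated to 2 RefSeq transcripts, and the value does not separate p16 from ARF. Cdkn2b, which encodes p15, an inhibitor known for its induction by TGF-beta, lay between 5.64 and 5.88 in the controls and between 5.59 and 5.88 in the knockdown, above 67.7% of the negative controls. Its difference was -0.05 ± 0.10 (95% interval -0.29 to 0.18, limma adjusted p = 0.845), the groups overlapped, and the sign turned without control replicate 1 (0.01) or without knockdown replicate 6 (0.00).

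Cdkn2a and Cdkn2b are neighbours on mouse chromosome 4 in the RefSeq gene table. Mtap, the protein-coding gene next to Cdkn2a on the other side and a methionine salvage enzyme gene, lay at 11.34, 11.41 and 11.44 in the controls and at 11.80, 11.51 and 11.77 in the knockdown, far above the negative-control percentile on every array. Dmrta1, beside Cdkn2b, lay at 7.84, 7.87 and 7.87 in the controls and at 8.48, 7.95 and 8.14 in the knockdown, near that percentile. Mtap gave a clear signal on all 6 arrays, while the probe sets of both inhibitors gave background signal on all 6. The next genes outward, Ifne beyond Mtap and Zfp352 beyond Dmrta1, also had means inside the range of the negative controls. Those means lay above 68.9% and 39.1% of these controls. Why the levels differed along this stretch was not tested. None of these neighbours passed the threshold (limma adjusted p = 0.125 for Mtap and 0.194 for Dmrta1), and all were chosen for their position.

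**Figure D2:**
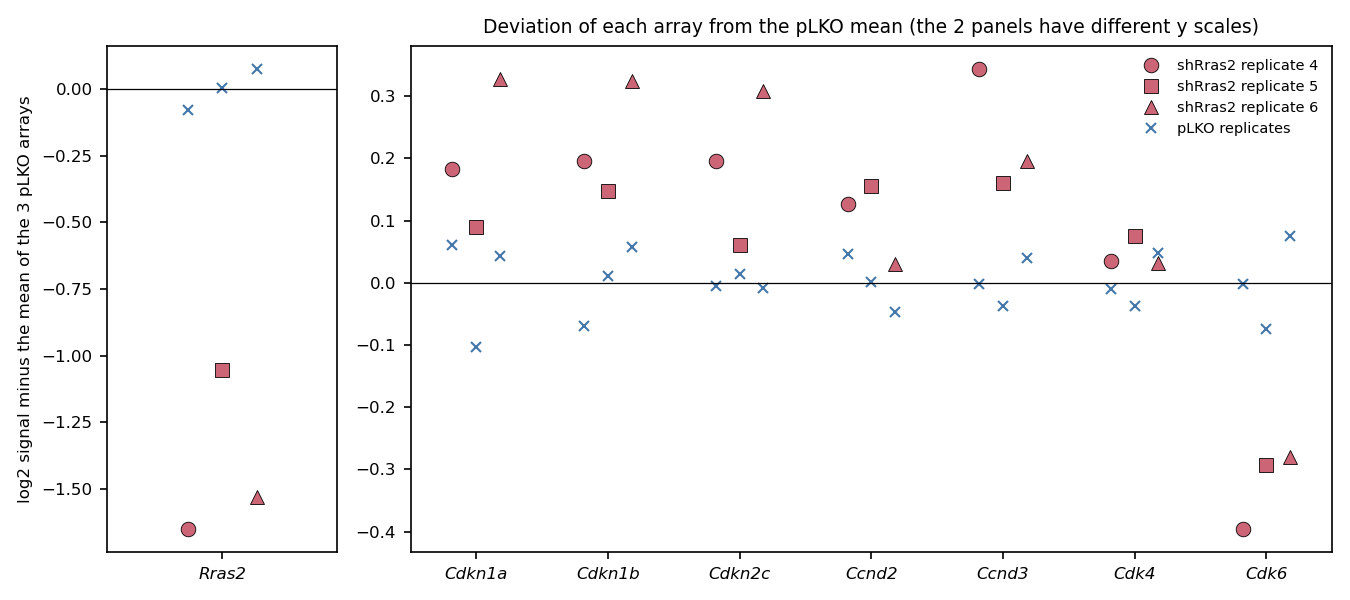
Log2 signal of Rras2 (left) and of the 7 genes above the negative-control percentile (right) minus the mean of the 3 pLKO arrays, for each shRras2 array (red) and pLKO array (blue crosses); the panels have different y scales. Replicate 5, the knockdown array with the most Rras2 signal (-1.06 from the control mean, against -1.65 and -1.53), also had the smallest deviation for Cdkn1a (0.09), Cdkn1b (0.15), Cdkn2c (0.06) and Ccnd3 (0.16), and the highest for Ccnd2 (0.16) and Cdk4 (0.08).

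The knockdown arrays were not alike. Replicate 6 was the highest for Cdkn1a, Cdkn1b and Cdkn2c, with deviations of 0.33, 0.32 and 0.31 from the control mean, and replicate 4 the highest for Ccnd3, with 0.34. Replicate 5 was the lowest of the 3 for each of these 4 genes, and also had the most Rras2 signal. The other 3 genes above background did not share that order. For Ccnd2 and Cdk4 replicate 5 was the highest of the 3, with deviations of 0.16 and 0.08. For Cdk6 the deviations were -0.40, -0.29 and -0.28 on replicates 4, 5 and 6. With 3 arrays no relation between the depth of the knockdown and these values was tested.

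Windows of 2 inhibitor genes whose groups did not overlap are shown with the same marking, Cdkn1b at chr6:134920151-134920400 on the plus strand and the upstream one of 2 windows of Cdkn2c at chr4:109666757-109667006 on the minus strand, for the GC boxes that both hold.
Cdkn1b: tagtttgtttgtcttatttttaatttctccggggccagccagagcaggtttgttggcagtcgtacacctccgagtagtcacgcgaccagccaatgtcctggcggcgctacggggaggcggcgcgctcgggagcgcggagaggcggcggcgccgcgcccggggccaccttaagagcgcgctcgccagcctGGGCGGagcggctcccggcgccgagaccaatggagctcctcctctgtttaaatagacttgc
Cdkn2c: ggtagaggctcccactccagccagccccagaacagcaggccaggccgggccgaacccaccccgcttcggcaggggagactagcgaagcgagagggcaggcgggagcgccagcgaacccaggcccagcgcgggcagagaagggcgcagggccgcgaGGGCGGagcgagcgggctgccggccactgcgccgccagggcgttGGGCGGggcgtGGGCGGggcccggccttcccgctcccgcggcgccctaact
The Cdkn1b window held 1 GC box and the Cdkn2c window 3, and neither held the E-box. Both are rich in G and C (64.4% and 77.2%, against a median of 52.4% over all windows). The other Cdkn2c window held 0 GC boxes and 42.8% G and C. The table held 12 windows for 8 of the 10 genes. A GC box was in 7 of these 12 windows and in 32.7% of all windows, and an E-box in 2 and in 6.02%. Windows with a GC box belonged to 6 of these 8 genes, among them Cdk4 and Cdkn2a, whose groups overlapped. Cdk6, whose groups did not overlap, held no GC box. The FOXO letters TGTTTAC were in 1 of the 12, of Ccnd3, and in 3.17% of all windows. The AP-1 letters TGANTCA were in 0 of the 12 and in 6.75% of all windows, and the ETS letters CCGGAAG in 1, the other window of Ccnd3, and in 6.91% of all windows. Cdkn1c and Ccnd2 had no entry.

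Of 29 other measured genes of the G1/S machinery 1 was higher and 3 were lower past the threshold, against 5.21% of all genes past it. The list median was -0.04, against -0.01 over all genes. The list was chosen by role. Cdc25a, the phosphatase that activates CDK2, lay at 9.26, 9.21 and 9.37 in the controls and at 8.63, 8.87 and 8.76 in the knockdown, and fell by 0.53 on the log2 scale (limma adjusted p = 0.0128). When single arrays were left out it passed in 3 of the 6 fits, with adjusted p-values up to 0.0561. E2f4, a repressive E2F partner of the pocket proteins, fell by 0.37, and Fbxo4, an F-box protein gene linked to cyclin D1 turnover, fell by 0.37 from a level below the negative-control percentile. Tfdp2, a dimer partner of E2F factors, rose by 0.39. E2f4, Fbxo4 and Tfdp2 had limma adjusted p-values of 0.0459, 0.0449 and 0.0315 and none of them passed in any fit that left out an array. The number past the threshold was therefore 1 without control replicate 1, control replicate 2 or knockdown replicate 5, and 0 without control replicate 3, knockdown replicate 4 or knockdown replicate 6.

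The following G1/S genes, named whatever their values, did not pass. The cyclin E genes Ccne1 and Ccne2 differed by -0.16 ± 0.09 and -0.18 ± 0.12, and their kinase gene Cdk2 by -0.02 ± 0.08. Among the pocket proteins, Rb1 differed by 0.27 ± 0.09 without overlap between groups (limma adjusted p = 0.143), Rbl1 by -0.09 ± 0.09 and Rbl2 by 0.09 ± 0.09. E2f1 differed by -0.19 ± 0.10. Skp2, which targets p27 for degradation, differed by 0.23 ± 0.09 (limma adjusted p = 0.199), and Cdkn2d, the fourth INK4 gene (p19), by 0.06 ± 0.07.

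**Figure D3:**
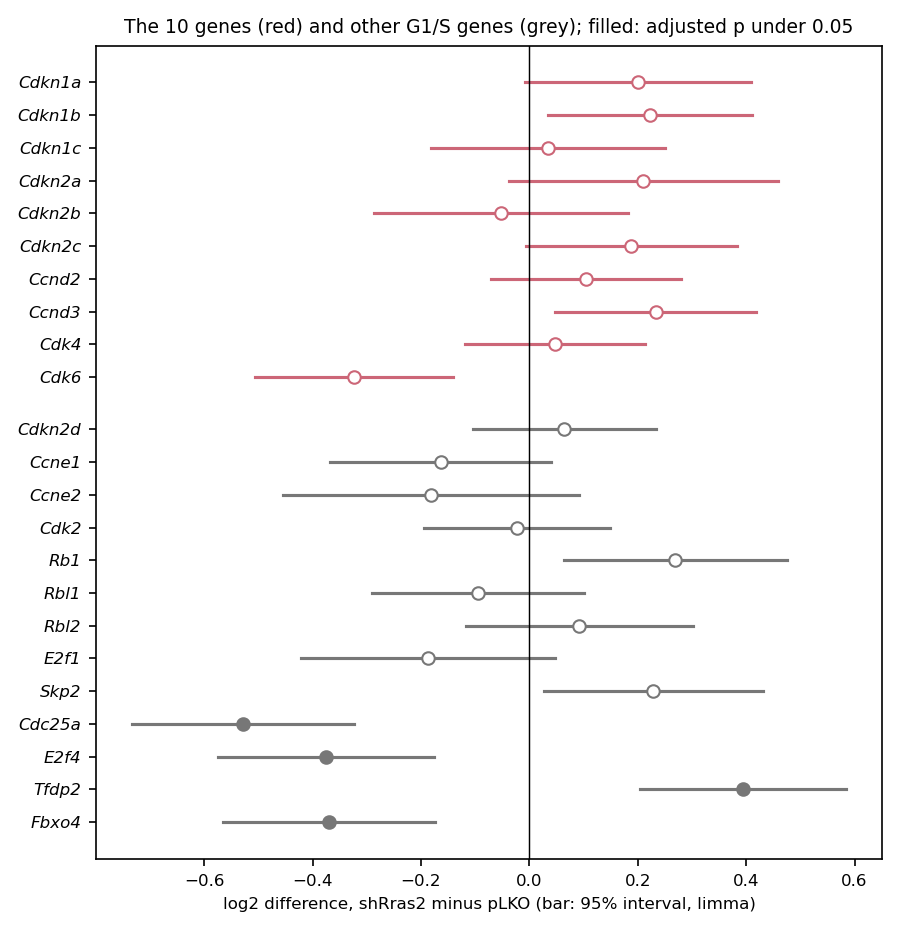
Log2 difference (shRras2 minus pLKO) with its 95% interval from limma, n = 3 arrays per group, for the 10 genes (red) and 13 other G1/S genes (grey); filled points passed an adjusted p of 0.05. The interval of Cdk6 lies below 0 and those of Cdkn1b and Ccnd3 above 0, all with open points, and Cdc25a, E2f4, Tfdp2 and Fbxo4 are the filled points.

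Genes that act on the inhibitors were listed too, among them p53 regulators, Polycomb subunits, FOXO and SMAD factors. Of 27 measured, 0 passed limma's threshold and 5 had an unadjusted p under 0.05, a share near the 19.1% of all genes. These 5, named after their values were seen, were Mdm4 (0.31 ± 0.09), Kdm6b (0.20 ± 0.09), Smad3 (0.26 ± 0.08) and Ets2 (0.40 ± 0.11), with higher knockdown means, and Myc, with a lower one. Ets2 passed in 1 of the 6 fits without 1 array. Of 20 measured p53 targets other than Cdkn1a 3 rose and 0 fell past the threshold, against 5.21% of all genes past it. Perp rose by 1.51, Sesn1 by 0.58 and Trp53inp1 by 0.48 on the log2 scale (limma adjusted p = 0.00177, 0.00666 and 0.0297, the last passing in 1 of the 6 fits without 1 array). The control means of Perp (6.74) and Trp53inp1 (7.64) were below the negative-control percentile of 7.92. Over these 20 genes the median difference was 0.11, and 8 had an unadjusted p under 0.05, against 19.1% of all genes. Of these 8, 6 had higher knockdown means and 2 lower ones, Ccng1 (-0.19 ± 0.08) and Tigar (-0.34 ± 0.08), which did not pass.

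Genes of the phases after G1 were listed too, against a background of 5.21% of all genes past the threshold. Of 28 S phase genes 2 fell and 0 rose, the replication helicase gene Mcm6 by 0.79 and the cyclin A gene Ccna2 by 0.32 (limma adjusted p = 0.00119 and 0.0452, Ccna2 passing in 1 of 6 when single arrays were left out). The list median was -0.19 and 15 of the 28 had an unadjusted p under 0.05, against 19.1% of all genes. All 15 had lower knockdown means. The sliding clamp gene Pcna differed by -0.05 ± 0.07. Of 21 G2/M genes 1 rose, the spindle gene Nusap1 by 0.49, and 0 fell, with a median of 0.05, and the proliferation marker Mki67 differed by 0.04 ± 0.08. The median of the 10 genes was 0.15, and no difference between lists was tested.

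**Figure D4:**
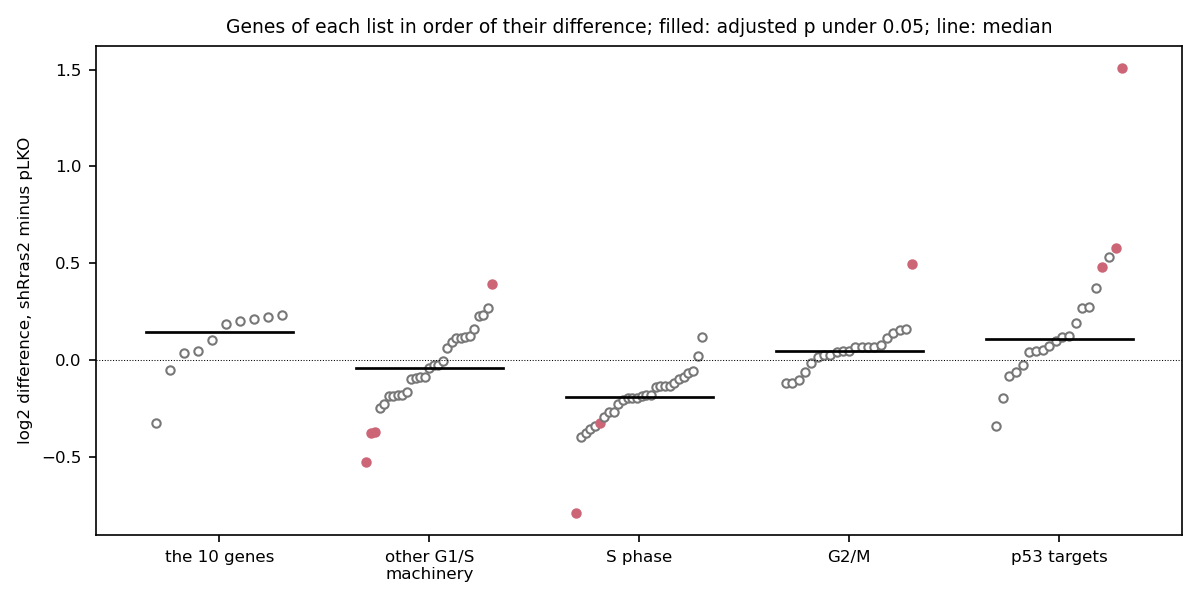
Log2 difference (shRras2 minus pLKO) of every measured gene in 5 lists, sorted within each list; each point is 1 gene, filled where the adjusted p is under 0.05, and lines are list medians. None of the 10 genes is filled, and the S phase list has the lowest median at -0.19.

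The genes whose profile over the 6 arrays was most like that of Cdk6, which had both the smallest p and the largest difference of the 10, were Hsph1, a heat shock protein gene, Ascc2 and Nek4, a kinase gene. Likeness was the root mean square distance between profiles centred on their own means, over the 6 arrays and 8130 candidate genes above the negative-control percentile. It was 0.015, 0.023 and 0.025 log2 units for these genes, against a median of 0.178, and their differences were -0.33, -0.33 and -0.31, none past the threshold (limma adjusted p = 0.0589, 0.0599 and 0.0686).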

How the data were processed

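The values are log2 signals per probe set that the authors deposited, which the submitters' processing notes credit to RMA run in R 3.6.3. RMA subtracts background, makes the distributions of the arrays equal and summarises probes, so shifts common to all genes are removed and differences of dim genes are compressed; a package version and filters are not given in the sources. Of 29129 probe sets, 19572 had 1 gene symbol in the platform annotation, and the brightest per symbol was kept. Groups were compared with limma 3.58.1 in R 4.3.3 (lmFit, eBayes, no covariates, two-sided; residual degrees of freedom 4, prior 4.85) over 19505 genes. A run on simulated data checked only that large changes were called and that few unchanged genes were. No detection rate for changes as small as those described here is given. Differences are shRras2 minus pLKO with SE or a 95% interval. The number of arrays limits the precision (median SE 0.096), the p-values reflect how far these replicates spread, which could be technical spread only, and the groups cannot be told apart from any batch that follows the replicate numbers.

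The 10 genes and the lists were chosen with earlier results of these data known. The text names the 10 genes, Rras2, members of each list past the threshold (up to 6), a set of G1/S genes and Mki67 and Pcna whatever their values, and the 3 nearest profiles; other genes were named for their position or after their values were seen, as the text says. Of 202 listed names 190 were measured. Alternatives were other normalizations, filters, probe set rules, variance models, a minimum fold of 1.2 and leaving out each array. Promoter sequences are from RefSeq (GRCm38.p6); both strands were searched for E-box, GC box, E2F, FOXO, AP-1, ETS, TATA box, myogenic E-box and CCAAT box letters.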

Additional observations from a re-analysis of the deposited data

How the results depend on the processing

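No paired analysis was possible because the groups share no replicate number. Under the probe set rules, the filter on dim genes, the trend and robust model and the minimum fold, the differences were unchanged. Direction could not turn in those settings. Of 87 values of the 10 genes under other settings than leaving out an array, 79 kept their direction and their side of the threshold. Another 7 kept their direction and came past it, and 1 turned. Past it came Cdk6 with each array centred on its median (-0.36, adjusted p = 0.0424), without dim genes (-0.32, 0.0109), with a trend and robust model (-0.32, 0.00476) and with array weights (-0.32, 0.0451), Ccnd3 without dim genes (0.23, 0.0432) and with the trend and robust model (0.23, 0.0115), and Cdkn1a with that model (0.20, 0.0451). Of 60 values without 1 array 56 kept direction and side, and 4 turned, for Cdkn1c (range -0.024 to 0.10, with -0.00099 without knockdown replicate 6) and Cdkn2b (-0.14 to 0.0086, with 0.0042 without knockdown replicate 6). Cdkn1c was -0.0055 with each array centred on its median. The filter on dim genes gave no value for Cdkn1c, Cdkn2a and Cdkn2b. Among the 10 genes, 1, 2, 3 and 1 passed with median centring, without dim genes, with the trend and robust model and with array weights. Of all genes 1614 passed without dim genes, 1908 with the trend and robust model, 182 with a minimum fold of 1.2, and 392 to 1136 without 1 array. Median centring moved the split from 584 higher and 433 lower to 506 and 567. Of the other G1/S genes 0 passed with the minimum fold, and 0 to 1 without 1 array. Without dim genes fewer tested genes entered the adjustment, and the variance model was fitted to the kept genes only. The unadjusted limma p fell too, for Cdk6 from 0.00315 to 0.000938 at the same difference. Why the counts moved was not tested. Signals near the negative controls limit what can be said of Cdkn1c, Cdkn2a and Cdkn2b.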
